A study of Mus musculus with 4 samples.

Results

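The data collected for 9 chemokine genes, Cxcl1, Cxcl2, Cxcl9, Cxcl10, Cxcl12, Cxcl16, Cx3cl1, Ccl2 and Ccl7, were examined in RFP-positive cells of the mouse left ventricle. They were 9 of the 31253 genes in the count tables and were matched by their symbols. The question behind the comparison of the diets is which of these attractants endothelial cells (ECs) of the heart carry, and whether they differ in heart failure with preserved ejection fraction (HFpEF). UMI counts of 4 single-cell libraries were available, 2 labelled NC from mice on a chow diet and 2 labelled HFpEF from mice on a high-fat diet (HFD) plus L-NAME, an inhibitor of nitric oxide synthases. All mice carried R26-stop-tdTomato, a Cre-activated red fluorescent reporter, with the tamoxifen-inducible Cdh5-CreER, whose Cdh5 promoter is that of VE-cadherin, and a floxed Scarb1 (SR-B1) gene. The series holds Sfl/fl/RΔEC and Sfl/+/RΔEC mice under both diets, but the labels of the libraries give no genotype, so diet was the only group here and genotype cannot be told apart from the library. Age, duration of the diet and the number of mice in a library are not given in the labels of these libraries. Nothing in the labels shows that 2 libraries came from separate animals. Each p therefore measures the spread between these libraries, which may be technical or may hold a difference of genotype. The study describes 4 groups of diet and genotype for its single-cell data, and 4 libraries were available. The 2 libraries of a diet are thus likely to differ in genotype and not to be replicates.

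Chemokines are small secreted proteins that direct the movement of leukocytes through G protein-coupled receptors. Endothelium displays them on its luminal surface, bound to proteoglycans, where rolling leukocytes meet them. Cxcl1 and Cxcl2 act through Cxcr2 and attract neutrophils, and Cxcl9 and Cxcl10 are interferon-induced ligands of Cxcr3, the receptor of activated T cells and natural killer cells. Cxcl12 binds Cxcr4 and Ackr3 and serves the retention of progenitor cells and the patterning of vessels. Cxcl16, the ligand of Cxcr6, and Cx3cl1, the ligand of Cx3cr1, are made as membrane-anchored proteins and shed by Adam10 and Adam17, whereas Ccl2 and Ccl7 attract monocytes through Ccr2.

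Among the members, the genes of the Cxcr2 and Cxcr3 ligands lie in pairs. Other chemokine genes near them were not looked for. On GRCm38, Cxcl1 (ENSMUSG00000029380) is at chr5:90891241-90893115 and Cxcl2 (ENSMUSG00000058427) at chr5:90903871-90905938, both on the plus strand and 10756 bases apart. Cxcl9 (ENSMUSG00000029417) is at chr5:92321347-92328079 and Cxcl10 (ENSMUSG00000034855) at chr5:92346638-92348889, both on the minus strand and 18559 bases apart, and Cxcl10 overlaps Art3 on the other strand. Ccl2 (ENSMUSG00000035385, chr11:82035571-82037453) and Ccl7 (ENSMUSG00000035373, chr11:82045712-82047525) are 8259 bases apart on the plus strand, and Ccl2 overlaps Gm17268 on the other strand. Cxcl12 (ENSMUSG00000061353, chr6:117168535-117181367, plus strand), Cxcl16 (ENSMUSG00000018920, chr11:70453983-70459984, minus strand) and Cx3cl1 (ENSMUSG00000031778, chr8:94772009-94782427, plus strand) have no other member beside them, and Cxcl16 overlaps Zmynd15 on the other strand. How the counting treated strand is not given in the sources used here.

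The promoters of these 2 pairs are shown because their genes were the ones found together in single capillary cells, as described with the co-detection values. Each is the 250 bases before the start in RefSeq on GRCm38.p6, printed 5′ to 3′ on the strand of the gene, with capitals for the bases that match a motif. The motifs searched, on both strands, were GGNNNTTCC for NF-κB, AAANNGAAA for the interferon-stimulated response element, and TTCNNNGAA for the gamma-activated site. Cxcl1 is read at chr5:90890995-90891244, Cxcl2 at chr5:90903649-90903898, Cxcl9 at chr5:92328080-92328329 and Cxcl10 at chr5:92348890-92349139.
Cxcl1: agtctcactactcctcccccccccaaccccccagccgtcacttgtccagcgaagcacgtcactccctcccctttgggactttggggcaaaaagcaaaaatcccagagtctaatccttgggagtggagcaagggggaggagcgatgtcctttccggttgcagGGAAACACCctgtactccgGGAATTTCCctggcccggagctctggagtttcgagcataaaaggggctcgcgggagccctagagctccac
Cxcl2: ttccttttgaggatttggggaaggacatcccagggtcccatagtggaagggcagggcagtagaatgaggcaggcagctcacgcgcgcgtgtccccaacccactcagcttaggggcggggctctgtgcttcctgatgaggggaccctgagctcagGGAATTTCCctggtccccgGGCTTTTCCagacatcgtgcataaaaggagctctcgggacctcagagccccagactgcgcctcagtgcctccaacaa
Cxcl9: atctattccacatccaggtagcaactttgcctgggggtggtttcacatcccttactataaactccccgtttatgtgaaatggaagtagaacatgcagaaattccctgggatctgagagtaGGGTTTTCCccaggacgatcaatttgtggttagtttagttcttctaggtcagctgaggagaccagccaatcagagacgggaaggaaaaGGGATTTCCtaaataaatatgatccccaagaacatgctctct
Cxcl10: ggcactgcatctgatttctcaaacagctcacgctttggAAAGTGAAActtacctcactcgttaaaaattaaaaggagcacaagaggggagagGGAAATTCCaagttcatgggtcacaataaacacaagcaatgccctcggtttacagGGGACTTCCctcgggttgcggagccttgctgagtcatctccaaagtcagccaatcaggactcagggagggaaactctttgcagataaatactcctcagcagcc
The NF-κB letters were found in 5 of the 6 members with a promoter in RefSeq (Cxcl1, Cxcl2, Cxcl9, Cxcl10 and Cx3cl1), against 15.7% of 32851 mouse promoters of 250 bases, and not in that of Cxcl12. In Cxcl1, Cxcl2, Cxcl9 and Cxcl10 the letters occurred at 2 places each, of which 1 in Cxcl1, 1 in Cxcl2 and 1 in Cxcl10 read as a match on both strands. The letters of the interferon-stimulated response element were found in Cxcl10, starting 212 bases before the start, against 9.37% of promoters, and in 0 of the other members searched. The letters of the gamma-activated site were in 0 of 6, against 7.02% of promoters. A match is a description of the letters in this window. Ccl2, Ccl7 and Cxcl16 had no promoter entry and were not searched for motifs.

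The libraries held 11163876 to 48003732 UMIs. After removal of cells with 200 genes or fewer or with 20% or more mitochondrial UMIs, 40154 cells remained, 7123 and 6695 from NC, 5454 and 20882 from HFpEF. The median UMI count per cell was 3754 and 4127 in NC and 1737 and 1619 in HFpEF, so shares of cells with a UMI were compared after each cell was thinned to 1000 UMIs. Each pair of libraries shared 10 to 42 cell barcodes, at most 0.728% of the smaller library. Clusters were made without the 9 members and gave 18687 capillary ECs, 7753 artery ECs and 1014 vein ECs. A further 10082 ECs in clusters of low depth or led by markers of another class were kept apart as mixed ECs, which were 16.7% to 16.8% of cells in NC and 27.7% to 29.9% in HFpEF. The markers of the capillary class (Car4, Rgcc, Aqp1, Gpihbp1, Cd300lg and Timp4) summed to 7102 to 10990 CPM in capillary ECs, where CPM are UMIs of a gene per 1000000 UMIs of the class in that library, those of the artery class to 1767 to 2073 CPM in artery ECs, and those of the vein class to 1277 to 1494 CPM in vein ECs. The capillary markers also summed to 4284 to 6641 CPM in artery and 4326 to 7232 CPM in vein ECs, below capillary ECs within each library. In capillary ECs they were at 10990 and 10693 CPM in NC against 7889 and 7102 CPM in HFpEF. The sort also held 1674 mural-like, 168 B-cell-like, 128 fibroblast-like, 81 T-cell-like, 54 neutrophil-like and 39 macrophage-like cells. The cells gated on Npr3, Nrg1 and Smoc1, which are endocardial markers, had Mgp and Dcn, and Vwf and Plvap of the vein list, among their leading genes, and are called Npr3+ ECs (156 cells).

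In capillary ECs, the most frequent cells of the sort, 8 of the 9 chemokines were measured at 6.09 CPM or above in every library, and Ccl7 was near 0. Cxcl12 was found at 1411 ± 179 CPM (mean ± SD, n = 4 libraries), Cxcl1 at 364 ± 116 CPM, Cxcl9 at 185 ± 42.4 CPM, Cxcl10 at 173 ± 79.8 CPM and Cxcl2 at 138 ± 68.4 CPM. Cxcl16 was at 38.7 ± 5.52 CPM, Cx3cl1 at 23.5 ± 5.73 CPM and Ccl2 at 14.0 ± 7.63 CPM, while 5 UMIs of Ccl7 were counted in all 18687 cells. A UMI is counted once per captured 3′ end, and these values were not used to rank the genes. As a share of all its UMIs in the sort, 74.4% of Cxcl9, 65.9% of Cxcl10, 57.4% of Cxcl1 and 55.7% of Cxcl2 came from capillary ECs, which held 46.5% of the cells. The share of cells is not a like baseline for shares of UMIs. The median UMI count was 2616 in capillary and 1036.5 in mixed ECs, so capillary ECs held more of all UMIs than of cells. The like baseline was 15757875 of 29867750 UMIs in NC library 1 and 15682189 of 31201157 in NC library 2. In HFpEF libraries 1 and 2 it was 5572464 of 10801149 and 23520584 of 47117650 UMIs.

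**Figure D1:**
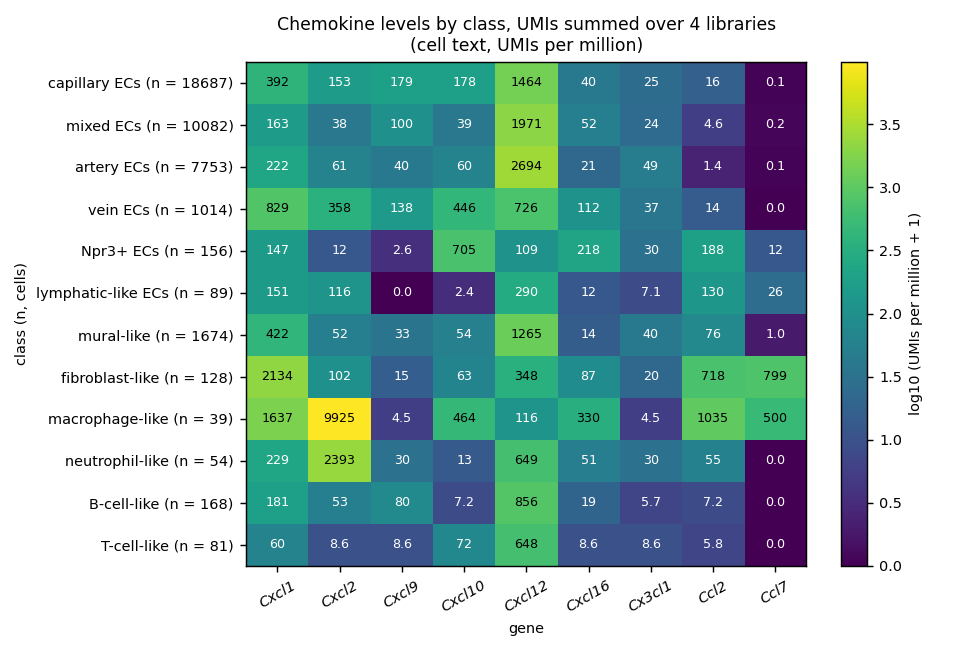
Levels of the 9 chemokines (columns) in 12 classes of cells (rows, with the number of cells), as UMIs summed over 4 libraries; the colour is log10 of CPM plus 1 and the printed value is CPM. Cxcl12 is highest in artery ECs (2694), Cxcl2 in macrophage-like cells (9925) and Ccl7 in fibroblast-like cells (799), and Cxcl9 is highest in capillary ECs (179).

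Along the vessels, the chemokines differed in the class of ECs where they were highest. Among capillary, artery and vein ECs, Cxcl9 was highest in capillary ECs by its mean, and Cx3cl1 was lowest there. Between artery and capillary ECs of the same library, 8 of the 9 members had a log2 ratio of 1 sign in all 4 libraries, where 49.1% of 11755 genes did. Cxcl12 was higher in artery ECs by 0.84 ± 0.11 (log2, mean ± SD, n = 4 libraries) and Cx3cl1 by 1.03 ± 0.25. Cxcl1, Cxcl2, Cxcl9, Cxcl10, Cxcl16 and Ccl2 were lower in artery ECs in all 4 libraries. Of these, Cxcl9 was 4.70-fold and Cxcl10 2.85-fold lower, and Cxcl1 1.70-fold lower. For each of these 8 an exact permutation of signs over the 4 libraries (two-sided) gave p = 0.125, its lower limit.

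Vein ECs carried more of the inflammatory chemokines than capillary ECs. Between vein and capillary ECs 6 of the 9 had 1 sign in all 4 libraries, where 37.8% of 10979 genes did. Cxcl10 was 2.89-fold, Cxcl16 2.83-fold, Cxcl2 2.57-fold, Cxcl1 2.24-fold and Cx3cl1 1.57-fold higher in vein ECs, and Cxcl12 was 2.07-fold lower (exact sign permutation p = 0.125 for each, the lower limit). Cxcl9 was lower in vein than in capillary ECs in 3 libraries and higher in HFpEF library 1, and Ccl2 lower in HFpEF library 2 and higher in 3, so neither differed beyond its spread. Against artery ECs, vein ECs had Cxcl10 8.23-fold, Cxcl2 6.24-fold and Cxcl16 5.15-fold higher and Cxcl12 3.71-fold lower.

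The order of the levels therefore differed between the genes. By their means, Cxcl12 went from artery ECs (2540 ± 458 CPM) over capillary ECs and mural-like cells (1250 ± 174 CPM) to vein ECs (686 ± 133 CPM). In B-cell-like cells it was at 757 ± 207 CPM and in T-cell-like cells at 598 ± 207 CPM. The vein level of Cxcl12 lay between these and was not told apart from background. The ranges of capillary ECs and mural-like cells overlapped, although mural-like cells were lower in each library (1.13-fold). Cxcl1 went from vein ECs (812 ± 225 CPM) over mural-like cells (450 ± 111 CPM) and capillary ECs to artery ECs (214 ± 63.6 CPM), with each class overlapping the next over the 4 libraries. B-cell-like cells had Cxcl1 at 214 ± 116 CPM and T-cell-like cells at 58.0 ± 54.2 CPM, and the artery level was not told apart from background. Cxcl10 went from vein ECs (499 ± 214 CPM) over capillary ECs to mural-like cells (64.2 ± 49.1 CPM) and artery ECs (62.4 ± 32.8 CPM). Here too each class overlapped the next, and the means of mural-like and artery cells lay well within each other's SD. Cxcl16 went from vein ECs (112 ± 24.0 CPM) over capillary and artery ECs (20.8 ± 2.99 CPM) to mural-like cells (13.4 ± 2.20 CPM), and the ranges of these 4 classes did not overlap. B-cell-like cells had Cxcl16 at 23.2 ± 10.5 CPM and T-cell-like cells at 10.3 ± 12.1 CPM. The artery and mural-like levels of Cxcl16 were not told apart from this background. Cx3cl1 was at 48.2 ± 4.41 CPM in artery ECs, 38.3 ± 14.2 CPM in mural-like cells and 36.7 ± 1.14 CPM in vein ECs, and lowest in capillary ECs, with mural-like cells overlapping the other 3 classes.

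Ccl7 was mostly found outside the vascular endothelium, and Ccl2 had its highest levels there. Of all Ccl2 UMIs, 36.7% came from capillary ECs and 51.6% from the endothelial classes together, against 21.3% from mural-like, 14.9% from fibroblast-like and 8.93% from macrophage-like cells. In CPM, Ccl2 was at 77.0 ± 34.4 CPM in mural-like cells, above capillary ECs in all 4 libraries (2.42 ± 0.52 on the log2 scale, exact sign permutation p = 0.125, the lower limit). Over all libraries together it reached 1035 CPM in the 39 macrophage-like cells (95% exact Poisson interval 906 to 1177) and 718 CPM in the fibroblast-like cells (648 to 793), intervals that cover counting error only. Of all Ccl7 UMIs, 69.7% came from the 128 fibroblast-like and 18.1% from the 39 macrophage-like cells. Npr3+ ECs, summed over the libraries, had Cxcl10 at 705 CPM (646 to 767), Cxcl16 at 218 CPM (186 to 254) and Ccl2 at 188 CPM (158 to 222), and 2 UMIs of Cxcl9. Cxcl10 in Npr3+ ECs was above capillary ECs in all 4 libraries (2.35 ± 0.59 on the log2 scale), as was Cxcl16 (2.48 ± 0.32), whereas Ccl2 was below in NC library 2, where 1 UMI was counted. With 15 to 60 Npr3+ ECs and 2 to 19 macrophage-like cells per library, these 2 classes were not compared between the diets.

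Cxcl9 and Cxcl10, the Cxcr3 ligands, were higher in both HFpEF libraries than in both NC libraries in capillary and in artery ECs, and the difference passed the test in artery ECs only. In artery ECs, Cxcl9 was at 24.4 and 27.4 CPM in the NC libraries against 52.8 and 57.7 CPM in the HFpEF libraries. The 2 groups did not overlap, and the fitted log2 fold change was 1.12 (SE 0.13, adjusted p = 0.0062 by the quasi-likelihood test of edgeR over 11262 genes). Cxcl10 was at 24.7 and 45.1 CPM in NC against 89.6 and 90.2 CPM in HFpEF artery ECs. These did not overlap either (log2 fold change 1.38, SE 0.22, edgeR adjusted p = 0.028). At the per-cell level, 3.13% of artery ECs thinned to 1000 UMIs had a UMI of Cxcl9, below the 4.70% of 149 B-cell-like cells. This share was not told apart from background, and whether B-cell-like cells measure background was not tested. The B-cell-like cells had Cxcl9 at a mean of 106 CPM in NC and 98.5 CPM in HFpEF. Cxcl10 was found in 3.49% of artery ECs, 0.671% of B-cell-like cells (95% Clopper-Pearson interval 0.0170 to 3.68) and 3.80% of 79 T-cell-like cells. The artery share was above that of B-cell-like cells but within its interval, and was not above that of T-cell-like cells. Summed over the libraries, Cxcl9 was at 39.9 CPM in artery ECs, 80.3 CPM in B-cell-like and 8.64 CPM in T-cell-like cells. Cxcl10 was at 59.9, 7.17 and 72.0 CPM. The artery level of each gene lay between those of B-cell-like and T-cell-like cells. The Cxcl10 UMIs of T-cell-like cells were 24 in HFpEF and 1 in NC. The median UMI count of all cells of these classes was 2943 in artery ECs and 3334 in B-cell-like cells.

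In capillary ECs, Cxcl10 was at 89.2 and 126 CPM in the NC against 211 and 265 CPM in the HFpEF libraries. Both HFpEF libraries were above both NC libraries, with clusters 3, 8 and 11 holding most of the NC and clusters 0 and 2 most of the HFpEF capillary ECs, yet the log2 fold change of 1.17 (SE 0.18) had an adjusted p of 0.088 by edgeR. Cxcl9 was at 138 and 165 CPM in NC against 235 and 202 CPM in HFpEF capillary ECs. The groups did not overlap, with a log2 fold change of 0.55 (SE 0.13, edgeR adjusted p = 0.15). By edgeR 0 of the 8 members tested, and 0 of 12011 genes (0%), were called in capillary ECs, whereas 2071 genes (17.2%) had an unadjusted p under 0.05, 9.21% of genes with a higher level in HFpEF. The 4 members among these, Cxcl1, Cxcl2, Cxcl9 and Cxcl10, were all higher. DESeq2 called 216 genes (1.8%), including Cxcl9 and Cxcl10. In artery ECs the 3 members called, Cxcl9, Cxcl10 and Ccl2, all higher in HFpEF, were 3 of 8 tested, against 58 of 11262 genes (0.515%) in either direction and 48 (0.426%) higher. At an unadjusted p under 0.05 these 3, Cxcl1 and Cxcl2 stood against 14.9% of genes, 8.40% being higher, and DESeq2 called 81 genes (0.719%), Cxcl9 and Cxcl10 among them.

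The calls in artery ECs depended on the libraries. Without HFpEF library 2, 0 members were called there, and the same was found with a stricter cell filter and with a marker gate on single cells, settings that called 19 (0.167%), 7 (0.0633%) and 15 (0.128%) of all genes tested, while the log2 fold changes stayed positive, at 0.49 to 1.45 for Cxcl9 and 0.60 to 1.87 for Cxcl10 over 15 alternatives each. Without NC library 2, Cxcl1 and Cxcl2 were called as well, among 268 genes (2.33%).

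In vein ECs, Cxcl10 was at 229 and 488 CPM in NC against 750 and 529 CPM in HFpEF. The groups did not overlap, but NC library 2 and HFpEF library 2 were close (log2 fold change 0.83, SE 0.25, edgeR adjusted p = 0.21). Cxcl9 was at 109 and 132 CPM in NC against 339 and 125 CPM in HFpEF vein ECs, so that only HFpEF library 1 was high (0.79, SE 0.30, edgeR adjusted p = 0.33). By edgeR 0 of 8 members were called in vein ECs, against 34 of 8556 genes (0.397%), 0.351% being higher in HFpEF. Cxcl1, Cxcl2, Cxcl9 and Cxcl10 had an unadjusted p under 0.05 and were higher, against 925 genes (10.8%), 6.17% of genes being higher. DESeq2 also called 0 members and 16 genes (0.187%) there.

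**Figure D2:**
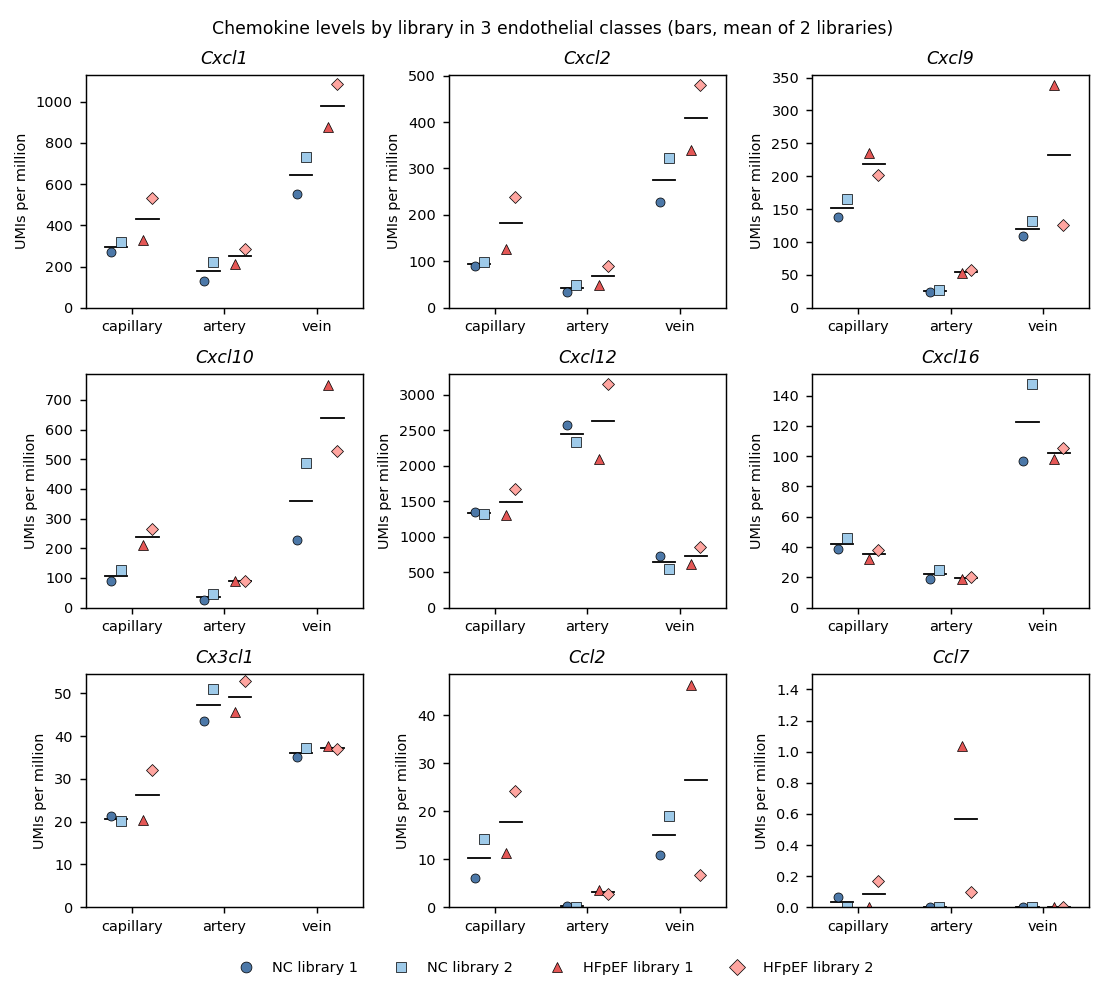
CPM of each chemokine in capillary, artery and vein ECs of the 4 libraries (blue, NC; red, HFpEF); each point is 1 library and each bar the mean of 2. Cxcl9 and Cxcl10 of both HFpEF libraries lie above both NC libraries in capillary and artery ECs, while the Cxcl16 and Cx3cl1 points of the diets overlap in artery and vein ECs.

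The difference of Cxcl9 between the diets was larger in artery than in capillary ECs. In a fit with library as a block, the term for this difference was 0.63 (log2, SE 0.12, edgeR adjusted p = 0.045), and 15 of 11755 genes (0.128%) were called. Cxcl9 was not called in this test without NC library 2 (adjusted p = 0.28), without HFpEF library 2 (0.82), with the stricter cell filter (0.19) or with the marker gate (1.00), and the adjusted p ran from 1.0e-05 to 1.00 over the 12 alternatives. For Cxcl10 the term was 0.17 (SE 0.13, edgeR adjusted p = 0.96), and the other members tested had adjusted p of 0.42 or above. Cx3cl1 (-0.38) and Ccl2 (2.60) had an unadjusted p under 0.05, as did 5.65% of genes. Between vein and capillary ECs 0 of 8 members differed in this way, against 21 of 10979 genes (0.191%), with Cxcl2, Cxcl10 and Ccl2 at an unadjusted p under 0.05, as 5.33% of genes were.

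Cxcl1 and Cxcl2, the neutrophil attractants, had higher means in HFpEF in all 3 endothelial classes, but neither passed the test in any. In capillary ECs, Cxcl1 was at 271 and 321 CPM in NC against 329 and 534 CPM in HFpEF. The 2 groups met closely, at 321 and 329 CPM, and HFpEF library 2 stood apart (log2 fold change 0.57, SE 0.21, edgeR adjusted p = 0.24). Cxcl2 was at 90.4 and 98.7 CPM in NC against 126 and 238 CPM in HFpEF capillary ECs, again with HFpEF library 2 highest (0.98, SE 0.25, adjusted p = 0.15). In artery ECs, Cxcl1 (132 and 224 against 213 and 287 CPM) and Cxcl2 (33.7 and 50.3 against 48.2 and 90.0 CPM) overlapped between the diets, with fitted changes of 0.52 (SE 0.21, edgeR adjusted p = 0.29) and 0.80 (SE 0.24, edgeR adjusted p = 0.18). B-cell-like cells had means of 214 CPM of Cxcl1 and 107 CPM of Cxcl2, and T-cell-like cells 58.0 and 13.6 CPM. The artery levels of both genes were not told apart from this background. In vein ECs, Cxcl1 was at 553 and 732 CPM in NC against 878 and 1084 CPM in HFpEF, and Cxcl2 at 227 and 323 against 339 and 480 CPM. Neither overlapped between the diets there, and the changes were 0.64 (SE 0.17, edgeR adjusted p = 0.13) and 0.63 (SE 0.20, adjusted p = 0.23).

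Cxcl12 did not differ between the diets beyond the spread of the libraries. It was at 1350 and 1316 CPM in NC against 1300 and 1678 CPM in HFpEF capillary ECs, where HFpEF library 1 was the lowest and HFpEF library 2 the highest (0.18, SE 0.14, edgeR adjusted p = 0.54). In artery ECs it was at 2571 and 2336 CPM in NC against 2091 and 3161 CPM in HFpEF, with the same 2 libraries at the ends (0.11, SE 0.18, adjusted p = 0.83). Without HFpEF library 2 the sign turned in both classes, to -0.0036 and -0.19. In vein ECs it was at 733 and 542 CPM in NC against 620 and 848 CPM in HFpEF (0.23, SE 0.18, edgeR adjusted p = 0.68). These vein values overlapped those of B-cell-like cells (569 to 963 CPM).

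The membrane-anchored chemokines Cxcl16 and Cx3cl1 also did not pass the test. Cxcl16 was at 38.6 and 45.8 CPM in NC against 32.3 and 38.1 CPM in HFpEF capillary ECs. It was the only member with both HFpEF libraries below both NC libraries there (log2 fold change -0.23, SE 0.13, edgeR adjusted p = 0.40), with 38.1 and 38.6 CPM side by side. Cx3cl1 was at 21.4 and 20.1 CPM in NC against 20.5 and 32.1 CPM in HFpEF capillary ECs, so HFpEF library 2 was high and the other 3 were between 20.1 and 21.4 CPM (0.41, SE 0.19, adjusted p = 0.32). In artery ECs, where Cx3cl1 was highest, it was at 43.5 and 50.9 against 45.6 and 52.9 CPM (0.09, SE 0.14, adjusted p = 0.80), and Cxcl16 was at 19.0 and 25.1 against 18.6 and 20.4 CPM (-0.15, SE 0.18, adjusted p = 0.74), both overlapping. This artery level of Cxcl16 was not told apart from that of B-cell-like cells (23.2 ± 10.5 CPM). In vein ECs Cx3cl1 was at 35.1 to 37.7 CPM in all 4 libraries (0.05, SE 0.25, adjusted p = 0.97), and Cxcl16 at 97.2 and 148 CPM in NC against 98.5 and 105 CPM in HFpEF (-0.22, SE 0.21, adjusted p = 0.74).

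Ccl2 was sparse in the endothelium. In artery ECs, 2 and 1 UMIs were counted in NC against 7 and 27 UMIs in HFpEF, in 14 of 7753 cells. The 7 UMIs of HFpEF library 1 lay in 1 cell and the 27 of HFpEF library 2 in 10 cells. Summed over the libraries of a diet this is a ratio of 13.8 (95% interval 4.33 to 70.1, counting error only), and edgeR gave a log2 fold change of 3.71 (SE 0.63, adjusted p = 0.037), which rests on these 37 UMIs. DESeq2 gave it no adjusted p, and 6 of the 12 alternatives with an adjusted p called it, with log2 fold changes of 1.48 to 4.25 over 13 alternatives. After thinning to 1000 UMIs 0.108% of artery ECs had a UMI of Ccl2, below the 1.34% of B-cell-like cells. This share was not told apart from background. In capillary ECs Ccl2 was at 6.09 and 14.3 CPM in NC against 11.3 and 24.2 CPM in HFpEF, which overlapped (0.91, SE 0.42, adjusted p = 0.32). In vein ECs, where 63 UMIs were counted, it was at 11.0 and 19.1 CPM in NC against 46.4 and 6.63 CPM in HFpEF, so the HFpEF libraries were the highest and the lowest (0.01, SE 0.72, adjusted p = 1.00). In mural-like cells, a class with no fit, Ccl2 was at 47.1 and 50.9 CPM in NC against 90.7 and 119 CPM in HFpEF and did not overlap. Cxcl10 there was at 12.4 and 44.2 against 128 and 72.2 CPM. The share of all genes that did not overlap was not counted in this class. Permuting 2 against 2 libraries cannot give an exact p below 0.33.

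In the main setting Ccl7 was not tested in the endothelium, unlike with the marker gate on single cells, which called it in vein ECs. In capillary ECs 1, 0, 0 and 4 UMIs were counted, in artery ECs 3 in all, both HFpEF libraries having at least 1, and in vein ECs 0 in each library, which allows up to 1.66 to 8.69 CPM (3 counts of the library's vein UMIs, counting error only). In fibroblast-like cells, summed over the libraries of a diet, 101 UMIs of Ccl7 were counted in NC and 331 in HFpEF, a ratio of 2.06 (95% interval 1.64 to 2.60, counting error only).

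**Figure D3:**
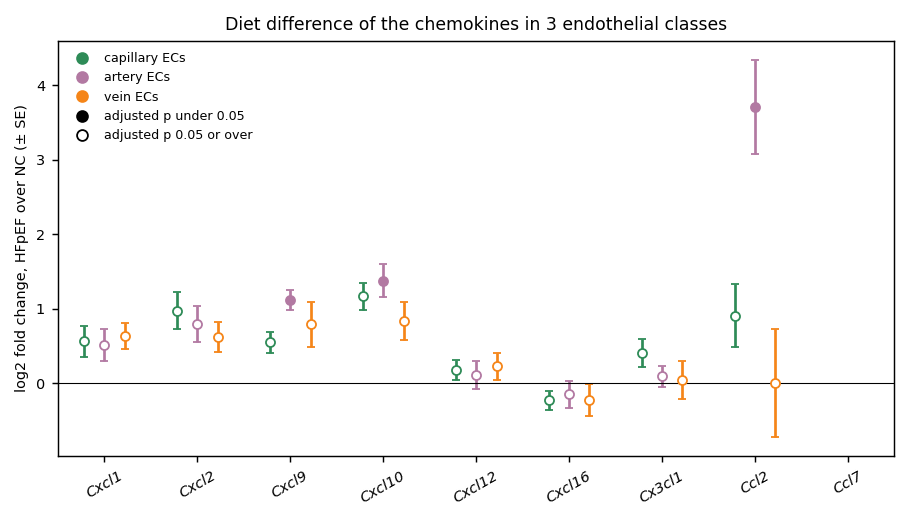
Log2 fold change of HFpEF over NC (± SE, edgeR, 2 against 2 libraries) for the chemokines tested in capillary, artery and vein ECs; filled points have an adjusted p under 0.05, and Ccl7 was not tested. Filled are Cxcl9 (1.12), Cxcl10 (1.38) and Ccl2 (3.71) in artery ECs.

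Over the members tested, the median log2 fold change was 0.56 in capillary, 0.66 in artery and 0.43 in vein ECs, while over all genes tested it was -0.0023, 0.0015 and -0.0035. In capillary ECs 4 of the 8 tested members had both HFpEF libraries above both NC libraries and 1 below, against 21.7% and 27.1% of genes (48.8% in either direction). In artery ECs these were 3 above and 0 below of 8, against 22.3% and 24.1%, and in vein ECs 3 and 0 of 8, against 19.3% and 22.6%. The members were chosen with earlier results of these data known, so these medians and counts describe the list and do not test it.

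Other values were also set side by side between the diets. Some did not overlap, such as the heat shock genes and the hemoglobin of artery ECs, and others did. The summed hemoglobin UMIs, transcripts of erythroid cells, were 633, 417, 511 and 2359 CPM in capillary ECs of NC libraries 1 and 2 and HFpEF libraries 1 and 2, highest in HFpEF library 2, and 2.63, 1.76, 126 and 459 CPM in artery ECs. The 14 immediate early and dissociation genes summed to 30072 and 26584 CPM in NC and to 35886 and 36649 CPM in HFpEF capillary ECs, with none at 0, and to 28863 and 27851 against 36138 and 35079 CPM in artery ECs. Without the heat shock genes Hspa1a and Hspa1b, the other 12 summed to 25076 and 23642 CPM in NC against 25345 and 23357 CPM in HFpEF capillary ECs, and to 23853 and 25288 against 26056 and 22825 CPM in artery ECs, and the diets overlapped in both classes. Hspa1a, an inducible heat shock protein, was at 2891 and 1842 CPM in NC against 6085 and 7188 CPM in HFpEF capillary ECs (1.51, SE 0.22, edgeR adjusted p = 0.078), and both Hspa1a and Hspa1b were called in artery and vein ECs. Summed UMIs of 5 general leukocyte markers were 0.381 to 1.08 CPM in capillary and 0.416 to 3.11 CPM in artery ECs, and those of 6 fibroblast markers 6.09 to 8.21 and 8.29 to 22.3 CPM. The 8 macrophage markers summed to 16.0 to 27.6 CPM in capillary ECs, most of it Cd68, with C1qa, C1qb and C1qc each under 0.70 CPM and Adgre1 at 0. The 11 mural markers summed to 107 to 179 CPM in capillary ECs. With hemoglobin-rich cells left out, Cxcl9 and Cxcl10 were still called in artery ECs and 0 members in capillary ECs. The part of the heat shock genes in these results was not tested.

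The chemokines differed in how they were spread over single capillary cells. After thinning, which left out 1.11% and 0.783% of capillary ECs of NC against 7.15% and 14.0% of HFpEF libraries, Cxcl12 was found in 66.3% of 17121 cells (95% Clopper-Pearson interval 65.6 to 67.0), Cxcl1 in 20.3% (19.7 to 20.9), Cxcl9 in 12.5% (12.0 to 13.0), Cxcl10 in 8.60% (8.18 to 9.03) and Cxcl2 in 7.55% (7.16 to 7.96). Before thinning these shares were 84.9%, 31.2%, 25.3%, 14.0% and 12.5%. In thinned B-cell-like cells they were 37.6%, 8.05%, 4.70%, 0.671% and 4.03%, each below the capillary share. The share of Cxcl2 lay within the interval of the 149 B-cell-like cells (1.49 to 8.56), as did those of Cxcl16 (3.67% against 2.68%) and Cx3cl1 (2.64% against 1.34%), and Ccl2 (0.496% against 1.34%) was below the B-cell-like share.

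Cxcl10 was found in 3.25% and 4.99% of thinned capillary ECs of NC against 8.28% and 12.4% of HFpEF libraries, without overlap, and Cxcl2 in 3.68% and 3.63% against 5.66% and 11.3%. Cxcl9 was found in 9.44% and 11.0% against 15.5% and 13.6%, and Cxcl1 in 13.6% and 14.8% against 16.7% and 26.4%. The mean UMI count in the positive cells did not follow for Cxcl10, at 2.06 and 2.33 in NC and 2.32 and 1.98 in HFpEF. In B-cell-like cells the share of Cxcl10 rested on 1 cell.

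Over capillary cells, the UMIs of Cxcl1, Cxcl2, Cxcl9, Cxcl10 and, less so, Cxcl12 varied by more than sampling alone gives. For Cxcl16 and Cx3cl1, which were found in fewer cells, no such excess was seen. At counts this low, variance over mean stays near 1 unless the spread is large, so a smaller excess could not be shown. The variance of the thinned UMI counts over their mean (Fano factor, which is 1 for counts that vary by sampling alone) was 2.44 to 2.72 over the 4 libraries for Cxcl1, 2.86 to 4.25 for Cxcl2, 2.03 to 2.43 for Cxcl9 and 3.24 to 6.29 for Cxcl10. It was 1.81 to 2.02 for Cxcl12 and 0.999 to 1.06 for Cxcl16 and Cx3cl1, which lay within the 0.968 to 1.15 of the 7 housekeeping genes. For Cxcl10, 1% of the cells held 60.1% and 56.0% of its UMIs in NC and 35.4% and 27.3% in HFpEF capillary ECs. For Cxcl12 1% of the cells held 5.88% to 6.51%. Ccl2 was the most uneven, with a Fano factor of 2.56 to 16.1 and up to 45 UMIs in 1 thinned cell.

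A set of 6 clusters made up the capillary ECs, and different ones held most of the cells of each diet. Genes that lead some of them, such as Hspa1b in cluster 2, themselves differed between the diets, so the shares below say where the cells lay and were not read as a result. Cluster 0 held 5.69% and 4.70% of capillary ECs in NC and 32.2% and 32.8% in HFpEF, and cluster 2, led by Cxcl2, Cxcl10, Tnf and Hspa1b, held 4.44% and 2.63% against 26.0% and 30.2%. Clusters 3 and 8, led by Adh1, Timp4 and other capillary genes, held 36.7% and 32.6%, and 20.5% and 30.2%, of the NC cells and 16.9% and 10.2%, and 8.35% and 4.76%, of the HFpEF cells. Cluster 6, led by Cxcl10, Iigp1, Plaur and Il6, held 12.6% to 16.4% in all libraries, and cluster 11, led by Ccl2, Pgf and Apln, held 19.7% and 17.3% in NC and 3.67% and 5.72% in HFpEF. The members took no part in the clustering.

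Cxcl1, Cxcl2, Cxcl10 and the sparse Ccl2 varied between these clusters by more than Cxcl9, Cxcl12, Cxcl16 and Cx3cl1. The highest cluster exceeded the lowest by 8.52 to 21.8-fold for Cxcl1, 28.9 to 158-fold for Cxcl2 and 22.9 to 89.4-fold for Cxcl10 in the 4 libraries, with a prior of 1 CPM. For Ccl2 it was 15.6 to 93.9-fold, with cluster 11 the highest in 3 libraries and cluster 6 in NC library 1. Clusters 2, 6 and 11 were high for Cxcl1, Cxcl2 and Cxcl10 in most libraries, and cluster 8 was the lowest for these 3 in every library, at 24.4 to 83.4 CPM of Cxcl1 and 1.22 to 11.5 CPM of Cxcl2. For Cxcl12, cluster 8 was the highest in all 4 libraries (1692 to 2251 CPM), and the range over the clusters was 1.65 to 2.69-fold. Cxcl9 ranged over 1.79 to 3.10-fold and Cxcl16 over 1.32 to 2.67-fold.

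The diets were also set side by side within each cluster. In cluster 6, which held a like share under both diets, Cxcl10 was at 162 and 252 CPM in NC against 494 and 397 CPM in HFpEF, without overlap. In cluster 11 it was at 180 and 270 against 371 and 404 CPM, and in cluster 3 at 31.5 and 32.1 against 48.7 and 81.8 CPM. Both HFpEF libraries were above both NC libraries in 4 of 6 clusters for Cxcl10 and for Cxcl2, in 3 for Cxcl1, Cxcl9 and Cxcl12, in 2 for Cx3cl1 and Ccl2 and in 1 for Cxcl16, and below in 0 clusters for any member. In cluster 2, Cxcl2 was at 261 and 629 CPM in NC, where it held 156 and 84 cells, and at 185 and 360 CPM in HFpEF. These are values without a test. The share of all genes that did not overlap was not counted within clusters, so the counts of clusters have no baseline. Over capillary ECs as a whole, 21.7% of genes lay higher in both HFpEF libraries and 27.1% lower.

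**Figure D4:**
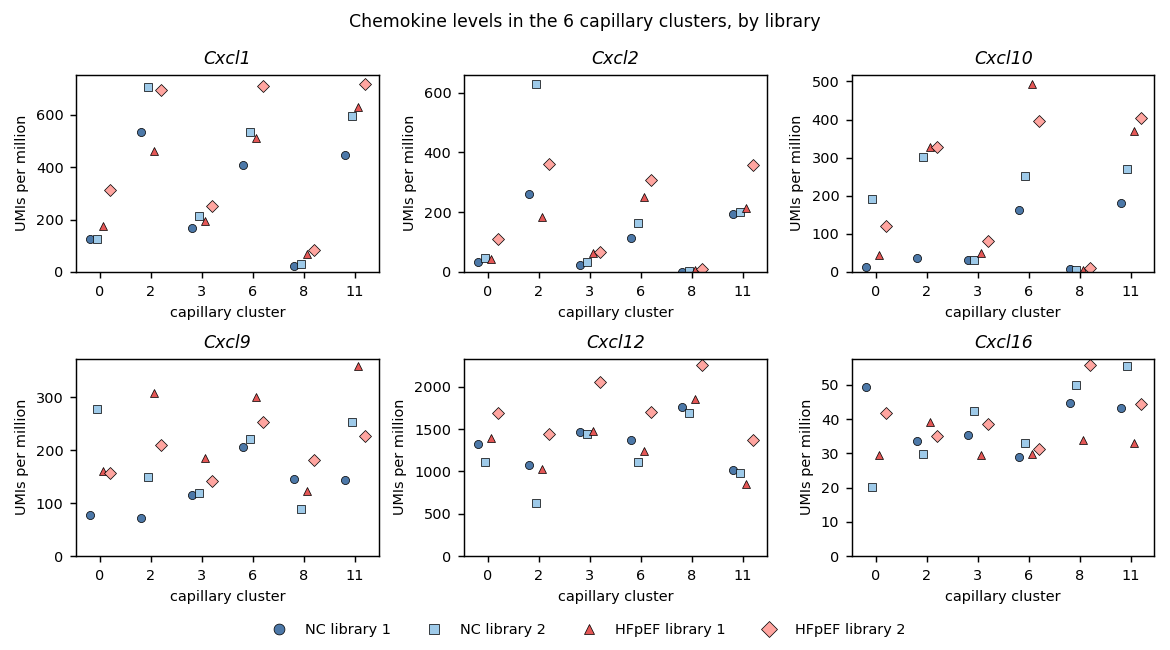
CPM of 6 chemokines in the 6 clusters of capillary ECs, each point 1 library (blue, NC; red, HFpEF). Cxcl1, Cxcl2 and Cxcl10 are high in clusters 2, 6 and 11 and low in cluster 8, where Cxcl12 is highest (1692 to 2251 CPM).

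Cells with one inflammatory chemokine also carried the others more often than independence would give. Of 36 pairs of members, 18 had at least 3 expected cells in every library, and 7 of these were found together above the expected number in all 4 libraries and 4 below. Among 16 pairs of housekeeping genes 1 was above and 3 below in all 4, and among 40 pairs of a member with a housekeeping gene 7 were above and 1 below. Cxcl2 and Cxcl10 were found together 4.80 and 3.48 times the expected number in NC against 3.37 and 2.00 times in HFpEF, with 20, 20, 38 and 227 cells observed. Cxcl1 and Cxcl2 were at 4.29, 3.46, 3.62 and 2.28 times, Cxcl9 and Cxcl10 at 3.37, 2.71, 2.34 and 2.11 times, and Cxcl1 and Cxcl10 at 2.33, 2.26, 2.11 and 1.57 times. The other 3 pairs above 1, Cxcl2 with Cxcl9, Cxcl1 with Cxcl9 and Cxcl9 with Cx3cl1, were at 1.12 to 1.90 times. Pairs among Cxcl1, Cxcl2, Cxcl9 and Cxcl10 made up 6 of these 7.

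Cxcl12 was found less often than expected with each of Cxcl1, Cxcl2, Cxcl9 and Cxcl10, at 0.732 to 0.963 times, in all 4 libraries. When the expected numbers were taken within each cluster, 7 pairs stayed above and 4 below 1 in all 4 libraries, with Cxcl1 and Cxcl2 at 2.63, 2.04, 2.72 and 1.91 times and Cxcl9 and Cxcl10 at 3.05, 2.17, 2.03 and 1.93 times. In artery ECs only 7 pairs had enough expected cells, 6 of them with Cxcl12, and 0 were above and 4 below 1 in all 4 libraries. Pairs in 1 cell share its library and its total, and these ratios have no test.

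**Figure D5:**
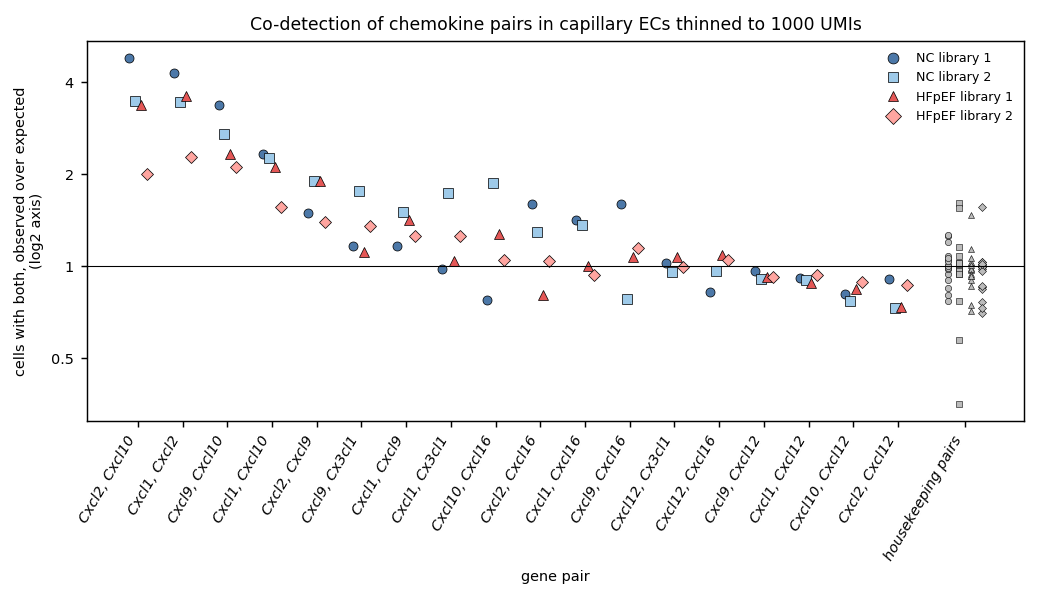
Cells with a UMI of both genes, observed over expected (log2 axis), for the 18 pairs of chemokines with enough expected cells in capillary ECs thinned to 1000 UMIs; each coloured point is 1 library and grey points are pairs of housekeeping genes. Cxcl2 with Cxcl10 and Cxcl1 with Cxcl2 lie highest, at 2.00 to 4.80 and 2.28 to 4.29, and the pairs of Cxcl12 with Cxcl1, Cxcl2, Cxcl9 and Cxcl10 lie below 1.

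The genes found most often beside each member, among 5007 genes detected in 2% or more of thinned capillary ECs of each library, included Neurl3, Adamts4 and Noct beside both Cxcl2 and Cxcl10. By the mean log2 ratio of observed to expected over the 4 libraries, the leading genes beside Cxcl2 were Cxcl1 (1.73), Cxcl10 (1.71), Neurl3 (1.70), Adamts4 (1.65) and Noct (1.46). Those beside Cxcl10 were Cxcl2 (1.71), Neurl3 (1.47), Adamts4 (1.44), Noct (1.39) and Cxcl9 (1.37). Beside Cxcl1 they were Cxcl2, Cxcl10, Casp4, an inflammatory caspase (1.01), Neurl3 (1.00) and Tnf (0.92). Beside Cxcl9 they were Cxcl10, Neurl3, Cxcl2, Ifit1, an interferon-induced gene (0.67), and Apol10b (0.67). The partners of Cxcl12 were led by Alpl (0.22) and Hey1 (0.20), the latter a gene of the artery marker list. Because Cxcl12 was found in most thinned cells, its ratios have a low upper limit. They do not compare with those of members found in fewer cells. For Cxcl16 (led by Ncoa4, 0.89) and Cx3cl1 (led by C1qbp, 0.93), which few cells carried, these are weak values from sparse counts.

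Of the rest of the chemokine system, little was detected in capillary ECs. The genes named from these lists, other than Ackr2 and the heat shock genes, were chosen after their values were seen. Of 28 other chemokines in the tables, 5 passed the count filter (Ccl5, Ccl25, Ccl27a, Pf4 and Ppbp), each at 9.10 CPM or less, and 0 were called. Of 23 receptors, 5 passed, of which Ackr3, the scavenging receptor of Cxcl12, was at 211 and 149 CPM in NC against 151 and 109 CPM in HFpEF (log2 fold change -0.46, SE 0.21, edgeR adjusted p = 0.32). Cxcr4 was at 21.4 to 24.0 CPM in all 4 libraries. Ackr2, a scavenger of inflammatory CC chemokines, had 6 and 10 UMIs in NC and 10 and 50 UMIs in HFpEF, without overlap in CPM (1.99, SE 0.42, adjusted p = 0.12). Cxcr3, Cxcr2, Ccr2, Cxcr6 and Cx3cr1, the receptors of most members, did not pass the filter. The proteases that shed Cxcl16 and Cx3cl1 were higher in both HFpEF libraries but were not called, with Adam10 at 108 and 110 against 127 and 143 CPM (0.33, SE 0.11, adjusted p = 0.19) and Adam17 at 43.0 and 41.9 against 44.0 and 61.3 CPM.

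All 10 upstream signalling genes passed the filter in capillary ECs and 0 were called. Of these, 5 had both HFpEF libraries above both NC libraries and 3 below, against 21.7% and 27.1% of genes. Tnfaip3, a feedback inhibitor of NF-κB, was at 25.3 and 31.5 CPM in NC against 35.7 and 60.9 CPM in HFpEF (log2 fold change 0.83, SE 0.22, edgeR adjusted p = 0.16), with HFpEF library 2 the highest, as for Cxcl1 and Cxcl2. Irf1, an interferon-induced transcription factor, was at 398 and 465 against 479 and 596 CPM (0.34, SE 0.14, adjusted p = 0.27). Ifngr1, a chain of the interferon-γ receptor, was at 283 and 280 CPM in NC against 205 and 208 CPM in HFpEF (-0.42, SE 0.10, adjusted p = 0.15), whereas Ifngr2 was at 32.1 and 34.7 against 38.4 and 46.6 CPM. The median log2 fold change of the list was 0.16.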

How the data were processed

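RFP-positive left ventricular cells were sequenced as 4 10x Genomics 3′ libraries, 2 per diet. Reads were trimmed with fastp and counted with Cell Ranger 5.0.1 on mm10 by the authors, who brought the libraries to like read depth, and the deposited values are UMI counts per gene and cell before the cell filter of the study. Cells with more than 200 genes and under 20% mitochondrial UMIs were kept. No doublet caller was run. Cells were clustered (2000 variable genes, 10 components, resolution 0.8) without the members, the other chemokines and their receptors, and clusters were named by marker lists, since no annotation was used.

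UMIs were summed per library and class and tested with edgeR 4.0.16 (quasi-likelihood, TMM factors, filterByExpr), adjusted by Benjamini-Hochberg over all genes tested, with calls at 0.05. SE is the log2 fold change over the root of F. CPM are UMIs per 1000000 UMIs of the class in its library. Differences between classes used a class-by-diet term with library as a block. Scripts were tested on simulated data. Python 3.11.15, R 4.3.3 and DESeq2 1.42.0 were used.

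The members, lists and tests were chosen with earlier results of these data known. Genes named by rule were the members, listed genes called in capillary ECs or separated there by at least 1 on the log2 scale with at least 10 UMIs in 2 libraries, and the 5 leading partners of each member. Other listed genes that are named, such as Ackr3, Irf1 and Tnfaip3, were chosen after their values were seen. Alternatives changed the tool, scaling, gene filter, cell filter, class definition, thinning and libraries, and keeping the mixed clusters among capillary ECs was chosen after seeing the data. The labels do not pair the libraries of the diets. Some genes of the lists are not reported here.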

Additional observations from a re-analysis of the deposited data

Results flagged for a closer look

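Cxcl9 differed between the diets by more in artery than in capillary ECs, by 0.63 on the log2 scale (SE 0.12, edgeR adjusted p = 0.045, 2 libraries per diet), in a test of the difference itself that called 15 of 11755 genes (0.128%). In artery ECs Cxcl9 was at 24.4 and 27.4 CPM in NC against 52.8 and 57.7 CPM in HFpEF, and in capillary ECs at 138 and 165 against 235 and 202 CPM. The share of artery ECs with a UMI of Cxcl9 after thinning to 1000 UMIs, 3.13%, was below the 4.70% of B-cell-like cells. It was not told apart from background, and whether B-cell-like cells measure background was not tested. The level of Cxcl9 over all libraries was 39.9 CPM in artery ECs against 80.3 CPM in B-cell-like cells. It was called in 8 of 12 alternatives, with a difference of 0.12 to 0.91, and the per-cell marker gate gave the lowest value. With 2 libraries in a group, no library was tested for standing apart.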

How the results depend on the processing

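Of the members called between the diets, given here with the share of all genes called, the number in capillary ECs rose from 0 (0%) to 2 with DESeq2 (1.80%), 1 without the low-count filter (0.477%), 1 with the stricter cell filter (over 500 genes and under 10% mitochondrial UMIs, 0.403%) and 1 after thinning (0.568%), and was 0 to 1 with a library left out (1 without NC library 2, 0.469%). In artery ECs it went from 3 (0.515%) to 5 without the low-count filter (3.06%), 0 with the stricter cell filter (0.0633%), 0 with the per-cell marker gate (0.128%) and 1 (Cxcl9) at clustering resolution 1.2 (0.178%), and was 0 (without HFpEF library 2, 0.167%) to 5 (without NC library 2, 2.33%). In vein ECs it went from 0 (0.397%) to 3 without the low-count filter (0.910%), 3 with the stricter cell filter (115 of 9547 genes) and 3 with the gate (0.319%), and was 0 to 4 with a library left out, 4 without NC library 2 (1.18%) and 2 without HFpEF library 1 (1.89%) or 2 (0.382%). The 3 called in vein ECs with the gate were Cxcl10, Ccl2 and Ccl7. With a library left out, members not overlapping in capillary ECs were 6 to 9 instead of 5, with 9 without HFpEF library 1. These counts are over all 9 members, and the 9 include Ccl7, which did not pass the count filter. The share of the genes tested, which leave out Ccl7, was 71.8% to 76.7% instead of 48.8%.

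With the replicate number as a block, 3 members were called in capillary ECs (Cxcl2, Cxcl10 and Ccl2), 5 in artery ECs and 2 in vein ECs (Cxcl9 and Cxcl10). Genes called then numbered 191, 359 and 96, against 0, 58 and 34. Same-numbered libraries correlated at 0.051 in their deviations over 12011 genes, so the block rests on a shared number only.

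Members whose diet effect differed between artery and capillary ECs went from 1 (0.128% of genes) to 2 without the low-count filter (0.270%) and 0 with the gate (0.0412%), and were 0 (without NC library 2, 0.158%, or HFpEF library 2, 0.0591%) to 2 (without NC library 1, 0.356%). Between vein and capillary ECs they went from 0 (0.191%) to 1 without hemoglobin-rich cells (0.318%) and 3 with the gate (0.161%), and were 0 to 2 with a library left out (2 without HFpEF library 1, 0.420%). Pairs found together above expectation fell from 7 to 4 at 500 UMIs.

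Signs turned for members that were not called. Cxcl12 was -0.0036 to 0.34 in capillary and -0.19 to 0.35 in artery ECs with a library left out, and -0.35 in vein ECs with the gate. Cxcl16 was -0.34 to 0.061 in artery and -0.51 to 0.10 in vein ECs with a library left out, and 0.19 in vein ECs after thinning. Cx3cl1 was -0.0175 to 0.21 in artery ECs with a library left out, -0.05 without hemoglobin-rich cells, and -0.085 in vein ECs with the stricter filter. Ccl2 in vein ECs was -1.13 to 1.70 with a library left out. The causes were not tested. Over all results and alternatives, 393 values kept direction and side of the threshold or count, 34 passed the threshold anew and 14 lost it in the same direction, 30 counts changed by more than 1.5 times, and 12 values turned their sign.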
